A study of Mus musculus with 12 samples.

Results

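Segment 2 of the mouse epididymis was compared between wild-type mice whose efferent ducts had been ligated (L2) and wild-type mice with no ligation (C2). The ligation was a suture tied around the efferent ducts just before they reach the caput, a procedure that keeps testicular fluid and sperm out of the epididymis. The members are the 4 segment 2 libraries of a series of 12, 2 ligated and 2 control, taken by their group labels. The other 8 libraries are segments 1 and 3 of ligated (L1, L3) and control (C1, C3) tissue. Every library is polyadenylated RNA from a pool of 2 mice, made with a directional kit from 500 ng of RNA. Sequencing was done in batches 3017 and 3097, each holding 1 library of every group, so that a ligated library was read beside a control library in each batch. Sources used here do not give the time after ligation, the age of the mice, whether controls had sham surgery, or which mice went into which pool. The p-values set a difference against the variation between such pools, estimated over all 12 libraries and not over segment 2 alone. The fit treats the libraries as independent apart from batch, although segments may come from the same mice. In bulk tissue, fewer cells of a type and less RNA per cell cannot be told apart.

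The first segment of the epididymis depends on factors that arrive in the testicular fluid, a dependence called lumicrine regulation. Testis-derived NELL2 acts on the receptor tyrosine kinase ROS1 of the initial segment, and signalling there runs through the kinase ERK to the PEA3 transcription factors ETV1, ETV4 and ETV5. ERK activity is held in check by its own induced inhibitors, the Sprouty and Spred proteins and the dual-specificity phosphatases. Segments 2 and 3 are also caput epididymis, where principal cells secrete the proteins that coat and protect sperm, and where lumen, epithelium and stroma are sampled together.

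Levels are TMM-scaled CPM, which put the counts of a library on a common total, and every pair of values gives batch 3017 before batch 3097. Totals were 36.4 and 39.7 M counts in L2 and 30.5 and 32.3 M in C2, within the range of 30.5 to 42.3 M over all 12 libraries. Gpx5, the secreted glutathione peroxidase of the caput, took more counts than any other gene in each of the 12 libraries, and the principal cell marker Adam7 was at 9179.6 and 9987 CPM in L2, against 26479.6 and 20884 CPM in C2. Genes were called at an adjusted p under 0.05 in a fit of all 12 libraries with batch as a block. The 2 C2 libraries differed from each other more than the libraries of any other group did, with counts of the pair giving a chi-square over its degrees of freedom of 115.5, against 48.3 for L2 and 22.6 to 80.1 for the other groups.

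The control libraries differed in how much segment 1 transcript they held. Transcripts of segment 1 were marked by 222 genes that were at least 8-fold higher in C1 than in C3 in both batches, with at least 10 CPM in both C1 libraries, and 134 genes marked segment 3 in the same way. Neither choice used a segment 2 library. Over the segment 1 genes, the median level as a percent of C1 of the same batch was 1.95% and 2.28% in L2, against 15.7% and 5.32% in C2. These genes together made up 0.167% and 0.146% of CPM in L2, against 3.42% and 0.758% in C2. On these genes the L2 libraries were alike, while the C2 library of batch 3017 held several times more segment 1 transcript than that of batch 3097. Some genes outside both marker groups differed widely between the L2 libraries, such as Rnase9, at 1675 and 10.7 CPM, and Defb30, at 529 and 6.60 CPM. The segment 3 genes mirrored this, with a median of 101% and 94.1% of C3 in L2, against 30.5% and 70.2% in C2. On both gene groups the ligated libraries lay at the level of segment 3 tissue, since C3 held 3.02% and 2.65% of the C1 level of segment 1 genes. The control library of batch 3097 lay nearer to segment 3 than that of batch 3017. What set the control libraries apart was not tested, and the results that follow are given by batch.

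**Figure D1:**
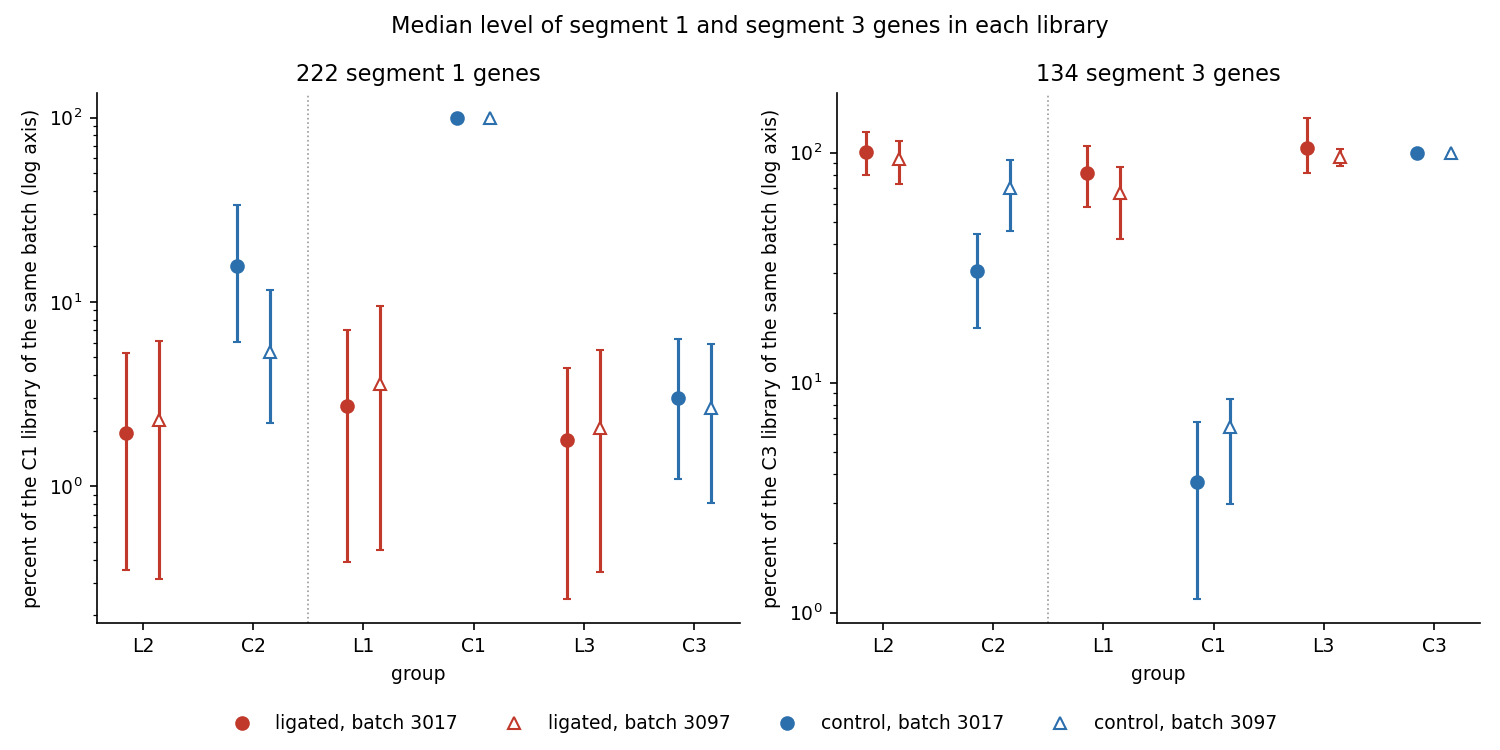
Median level of 222 segment 1 genes (percent of the C1 library of the same batch, log axis) and 134 segment 3 genes (percent of C3) in each of the 12 libraries, with lines from the first to the third quartile over genes. L2 sat at 1.95% and 2.28% for segment 1 genes, against 15.7% and 5.32% in C2, and at 101% and 94.1% for segment 3 genes, against 30.5% and 70.2% in C2.

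Of 19213 genes tested, 1895 (9.86%) were called between L2 and C2. They were mostly losses: 551 genes (2.87%) rose and 1344 (7.00%) fell, 1892 of them in the same direction in both batches. The losses were also larger by the fitted fold, which depends on the fit's prior for genes with no count, with 474 genes at least 8-fold lower and 34 at least 8-fold higher. A group of 155 genes that fell had no count in either L2 library, and 3 that rose had none in either C2 library. Within batch 3017, 1029 genes (5.36%) were at least 2-fold higher and 1197 (6.23%) at least 2-fold lower in L2. Within batch 3097 the counts were 187 (0.973%) and 642 (3.34%). Both batches together held 157 genes (0.817%) at least 2-fold higher and 568 (2.96%) at least 2-fold lower. The batch with more segment 1 transcript in its control thus gave more differences, and the larger fall in 1166 of the 1344 genes called lower. Among these 1344 genes, C2 of batch 3017 was above C2 of batch 3097 in 1171, and among the 551 called higher in 67. Both L2 libraries lay below both C2 libraries for 4922 genes (25.6%) and above them for 4557 (23.7%). These shares are the background for counts over all tested members of a group. Among called genes the pattern nearly follows from the call. Both L2 libraries lay below for 1326 of the 1344 genes called lower and above for 540 of the 551 called higher.

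**Figure D2:**
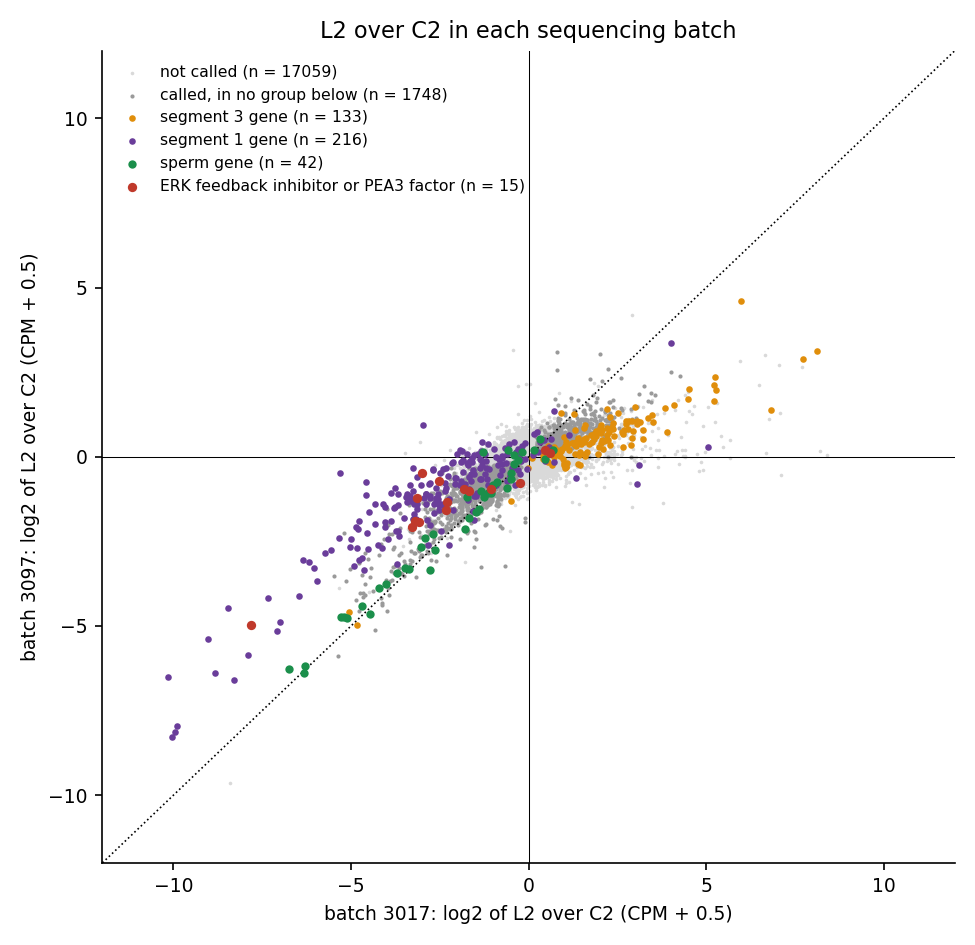
Within-batch log2 ratio of L2 over C2 (CPM plus 0.5) in batch 3097 against batch 3017 for all 19213 genes, each drawn in 1 group: 17059 not called, 1748 called in no other group, 216 segment 1 genes, 133 segment 3 genes, 42 sperm genes and 15 ERK feedback inhibitors or PEA3 factors. Sperm genes follow the line of equal ratios, with a median of -1.58 in batch 3017 and -1.59 in batch 3097, while segment 1 genes lie farther from 0 in batch 3017, with medians over all 222 of -2.33 and -0.83.

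The calls were split by these gene groups. Of the 222 segment 1 genes, 99 (44.6%) fell, with a median log2 fold change of -2.38 over all 222 and medians of -2.33 and -0.83 in the 2 batches. Of the 222, 1 rose, Crisp1, described with the caput genes. Of the 134 segment 3 genes, 9 (6.72%) rose and 3 fell, with a median of 1.06 overall and of 1.74 and 0.50 by batch. The 3 that fell were 4930571K23Rik, Gsg1 and Odf1. Gsg1 and Odf1 are described below with genes of sperm and germ cells, so this group does not mark segment 3 tissue alone. A further 14398 genes differed under 2-fold between C1 and C3 in both batches. Among them 261 (1.81%) rose, with a median log2 fold change of 0.57, and 532 (3.69%) fell, with a median of -0.67, and 218 of those that fell were at least 2-fold lower. All 14398 together had a median of 0.00. They made up 39.6% of all losses and 47.4% of all gains, against 74.9% of all genes tested. Segment 1 genes made up 7.37% of the losses, against 1.16% of all genes tested. The largest share, 52.8% of losses and 50.8% of gains, came from genes in none of these groups, which were 23.2% of all genes tested.

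The number of calls rested on single libraries. Without L2 of batch 3017 there were 148 calls, without L2 of batch 3097 there were 331, without C2 of batch 3017 there were 650 and without C2 of batch 3097 there were 4066. The last of these compares both L2 libraries with the control richest in segment 1 transcript, and the calls lower among segment 1 genes then numbered 171, against 60 without C2 of batch 3017, 9 without L2 of batch 3097 and 3 without L2 of batch 3017. Calls higher among segment 3 genes numbered 87, 16, 0 and 2 under the same omissions. Each of these fits leaves an arm with 1 library that is assumed to vary like the other groups. The 4 segment 2 libraries fitted alone, with 1 residual degree of freedom, called 15 sperm genes lower, 0 segment 1 secretory genes, 0 ERK feedback inhibitors and 1 cell cycle gene. Of 125 called genes named in the text, 27 were called whichever segment 2 library was left out: the ligand gene Tgfa, the feedback inhibitor Spry2, the mitochondrial ribosomal RNAs mt-Rnr1 and mt-Rnr2, and genes of sperm and germ cells. Every other named call was lost without at least 1 library.

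Reads at ribosomal RNA loci, and at some loci that moved with them, were far fewer in L2 than in C2, a difference that accompanies all the losses that follow. These loci were chosen after their values were seen. Gm42418, a lincRNA annotated at chr17:39846958-39848788 known to overlap a ribosomal RNA repeat, stood at 1125 and 1496 CPM in L2, against 32575 and 28180 CPM in C2 (log2 fold change -4.51 ± 0.55 SE, adjusted p = 0.0062). It was also high in C3, at 24688 and 7532 CPM, and lower in C1, at 3700 and 2752 CPM. The short locus Gm23935 followed, at 385 and 385 CPM in L2, against 9834 and 6289 CPM in C2, as did Lars2, a mitochondrial leucyl-tRNA synthetase gene, at 134 and 142 CPM against 2972 and 1659.9 CPM. The mitochondrial ribosomal RNA mt-Rnr2 stood at 908 and 1083 CPM in L2, against 2259 and 3099 CPM in C2 (log2 fold change -1.42 ± 0.16, adjusted p = 0.0015), and mt-Rnr1 at 181 and 183 CPM against 387 and 422 CPM. The 11 mitochondrial genes that encode proteins and were tested had 0 calls and a median log2 fold change of 0.15. The part that this difference in ribosomal RNA plays in other results was not tested. Of the genes called lower, 1185 encode proteins. The Gm23935 and Lars2 calls held only without C2 of batch 3097 (adjusted p 0.056 to 0.12 without the others), and that of Gm42418 was lost without L2 or C2 of batch 3017 (0.069 and 0.061).

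Most sperm transcripts were lower in L2, and many were near 0. Sperm in the lumen carry messenger RNA left from spermatogenesis, and 42 of 51 listed sperm genes were measured well enough to test. Of these, 29 (69.0%) fell, 0 rose and 13 were not called, against 7.00% of all genes falling. Summed over all 51 listed genes, the level was 229 and 210.2 CPM in L2, against 640.3 and 542 CPM in C2. Ppp1cc, Hk1 and Odf2, which kept the levels given below, made up most of the sum in L2. The median log2 fold change was -4.88 (-4.73 with genes at 0 in L2 set to their bound), and the within-batch medians were -1.58 and -1.59 with a prior of 0.5 CPM. Both L2 libraries lay below both C2 libraries in all 29, as in 1326 of all 1344 genes called lower. These genes differed little between the C2 libraries, with a median fold of 1.16 of batch 3017 over batch 3097, against 3.35 for the segment 1 genes that fell. The remaining 9 listed genes, Acr, Spam1 and Catsper1 among them, had 0 counts in both L2 libraries and at most 21 in a C2 library, too few to test.

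All 7 genes that pack DNA in the sperm head fell. Protamines replace histones in the condensing nucleus, and Prm1 (chr16:10796326-10805839) stood at 0.0518 and 0.0974 CPM in L2, against 21.1 and 15.4 CPM in C2 (log2 fold change -7.84 ± 0.46, adjusted p = 1.3e-04). Prm2 stood at 0.130 and 0.146 CPM in L2, against 66.5 and 49.3 CPM in C2 (-8.68 ± 0.65, adjusted p = 0.0014). Both control pools carried clear protamine signal, and the L2 values correspond to 2 and 4 counts for Prm1 and to 5 and 6 counts for Prm2. The transition proteins, which act before the protamines, followed, with Tnp1 at 0.104 and 0.0243 CPM in L2, against 9.26 and 6.60 CPM in C2, and Tnp2 at 0.0518 and 0.0487 CPM against 19.8 and 14.0 CPM. Summed over the 7 genes, the level was 0.467 and 0.341 CPM in L2, against 124 and 91.4 CPM in C2.

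Of 13 genes of the sperm tail, 10 fell. Akap4 (chrX:7067519-7078609), the main scaffold of the fibrous sheath, had 0 counts in both L2 libraries, against 16.8 and 13.2 CPM in C2, at least 199-fold lower against a floor of 3 counts per library (adjusted p = 1.6e-04). Odf1, an outer dense fibre protein, stood at 0.0259 and 0.0730 CPM in L2, against 42 and 47.3 CPM in C2 (log2 fold change -9.71 ± 0.53, adjusted p = 1.8e-04). Smcp of the mitochondrial capsule stood at 0.0259 and 0.0730 CPM, against 41.1 and 40.8 CPM. Odf2, whose protein is also a centrosome component of other cells, kept 51.3 and 45.6 CPM in L2, against 103 and 81.1 CPM in C2 (-0.92 ± 0.09, adjusted p = 9.8e-04). Its groups did not overlap, but they differed by under 2-fold.

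All 6 tested metabolic enzymes of the list fell. The glycolytic enzymes that replace their somatic forms in sperm were near 0: Gapdhs stood at 0.130 and 0.0487 CPM in L2, against 15.8 and 11.1 CPM in C2 (log2 fold change -7.20 ± 0.37, adjusted p = 1.1e-04). Pgk2 had 1 count in L2 in all, against 11 and 11.9 CPM in C2, a ratio of C2 over L2 of 915 (exact 95% interval of the counts 164 to 36211). Ldhc stood at 0.207 and 0 CPM in L2, against 8.78 and 4.86 CPM in C2. Hexokinase 1, which both sperm and somatic cells use, stood at 73.7 and 73.6 CPM in L2, against 105 and 103 CPM in C2 (-0.49 ± 0.10, adjusted p = 0.020). The Hk1 call was lost when either L2 library or the C2 library of batch 3017 was left out, with adjusted p of 0.17, 0.12 and 0.078.

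Of the acrosome genes 3 of 7 fell, and of the channel and signalling genes 3 of 9. Adam3, a sperm surface protein needed for passage into the oviduct, stood at 0.0778 and 0.0487 CPM in L2, against 4.20 and 2.99 CPM in C2 (log2 fold change -5.79 ± 0.65, adjusted p = 0.0016). The kinase Tssk6 stood at 1.35 and 0.755 CPM, against 12.3 and 12.2 CPM (-3.58 ± 0.30, adjusted p = 3.6e-04). Catsper2, at 9.72 and 5.89 CPM in L2, against 8.71 and 5.05 CPM in C2, and the phosphatase gene Ppp1cc, at 83.0 and 73.3 CPM against 103 and 78.7 CPM, were not called. In the fits with a library left out, 19 sperm genes fell without L2 of batch 3017, 20 without L2 of batch 3097, 24 without C2 of batch 3017 and 31 without C2 of batch 3097.

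**Figure D3:**
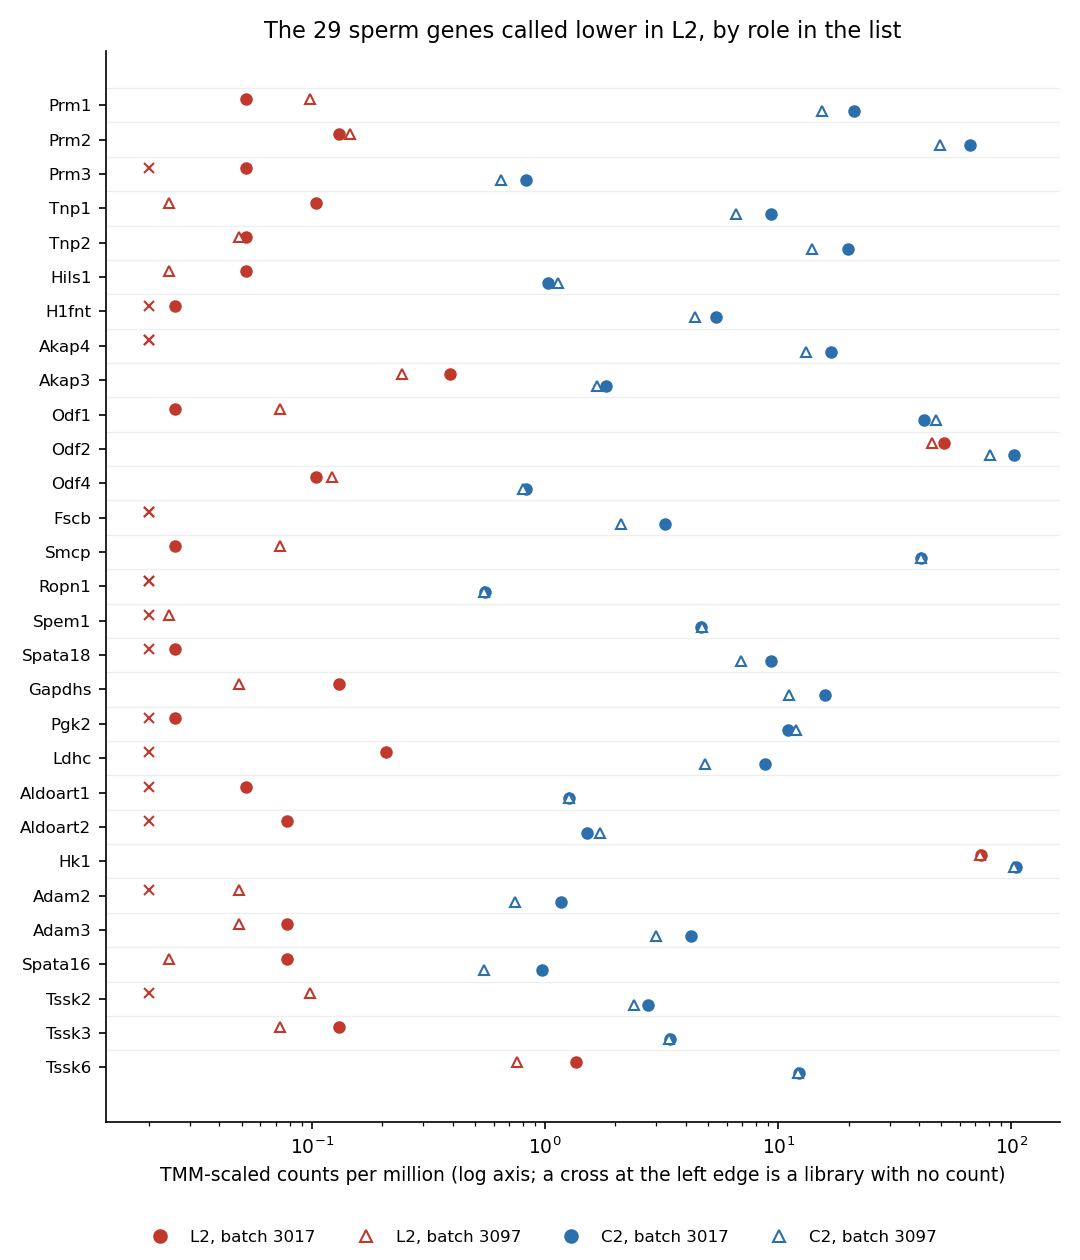
CPM (log axis) in each segment 2 library of the 29 sperm genes called lower, with L2 above C2 in each row, circles for batch 3017, triangles for batch 3097 and crosses for libraries with no count. Prm1 was at 0.0518 and 0.0974 CPM in L2, against 21.1 and 15.4 CPM in C2, and Odf2, at 51.3 and 45.6 against 103 and 81.1 CPM, shows a gene with a smaller difference.

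Outside the list, the genes with the largest falls by fold and the smallest adjusted p-values included those that follow. Irgc1, Spem2, Hspb9, Prr30, Spata21 and Spert had 0 counts in both L2 libraries, and bounds of at least 88.0-, 74.9-, 73.0-, 69.3-, 72.0- and 69.2-fold lower. Crisp2, a protein of the acrosome and outer dense fibres, stood at 0.130 and 0.195 CPM in L2, against 16.8 and 15.8 CPM in C2 (log2 fold change -6.62 ± 0.40, adjusted p = 1.3e-04). Gsg1, a germ cell gene, stood at 0.0778 and 0.0487 CPM, against 18.6 and 12.8 CPM. Ccdc136, at 2.18 and 2.09 CPM in L2, against 26.8 and 21 CPM in C2, and Fhl4, at 0.726 and 0.828 CPM against 17.3 and 13.3 CPM, kept a low level. Among 11 tested genes of earlier germ cells 4 (36.4%) fell, against 7.00% of all genes, with low control levels. Mael of the piRNA pathway had 1 count in L2 in all, against 2.10 and 1.13 CPM in C2 (ratio of C2 over L2 127, exact 95% interval 22.3 to 5075). Piwil1, with 0 counts in L2, was at least 7.83-fold lower. Sycp1 of meiotic chromosomes had 1 count in L2 (ratio 34.4, interval 5.66 to 1412), and Ddx4, an RNA helicase of germ cells, stood at 0.492 and 0.463 CPM in L2, against 1.72 and 1.09 CPM in C2. Of these 4, Mael kept its call without 3 of the libraries and the others only without C2 of batch 3097. Of 8 tested genes of testis somatic cells 0 were called, with a median log2 fold change of 0.42.

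Most secreted proteins that mark the initial segment were lower in L2, several of them at a few CPM. Of 16 such genes, 10 (62.5%) fell, against 7.00% of all genes, and 0 rose. The median log2 fold change was -4.36, with within-batch medians of -4.58 and -2.58. Summed over the 16, the level was 2239.7 and 558 CPM in L2, against 16885 and 4439.5 CPM in C2. A single gene that was not called, Rnase9, made up 1675 and 10.7 CPM of the L2 sums. In the 10 that fell, C2 of batch 3017 was higher than C2 of batch 3097 by a median of 3.69-fold, while the L2 libraries differed by 1.06-fold. The lipocalin Lcn8 (chr2:25653120-25656217), a carrier of small lipids, stood at 8.84 and 8.91 CPM in L2, against 3319.6 and 209.9 CPM in C2, a log2 ratio of -8.47 in batch 3017 and -4.48 in batch 3097 (fitted -7.38 ± 1.34, adjusted p = 0.028). Its neighbour Lcn9 stood at 1.74 and 2.41 CPM, against 2566 and 262 CPM (-9.11 ± 1.22, adjusted p = 0.013). Both batches thus showed the loss, from control levels that differed widely. Reads shared between such close relatives may have been split or dropped in the authors' counting, so single values within a family are uncertain.

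Rnase10, a secreted member of the ribonuclease A family needed for normal sperm function, stood at 3.14 and 2.56 CPM in L2, against 3865 and 942 CPM in C2 (log2 fold change -9.54 ± 1.04, adjusted p = 0.0067). Teddm1a, outside the list, stood at 5.57 and 4.82 CPM, against 5985 and 1481 CPM. The cystatin Cst8, a cysteine protease inhibitor, stood at 1.43 and 2.05 CPM in L2, against 1008 and 107 CPM in C2. Its relative Cst11 kept more of its level, at 173 and 259.8 CPM, against 3987 and 2134 CPM (-3.86 ± 0.69, adjusted p = 0.025). The beta-defensin Defb25 stood at 1.94 and 1.41 CPM in L2, against 759 and 186 CPM in C2, and Defb48 at 2.31 and 1.56 CPM against 68.9 and 20.3 CPM. The protease Ovch2, needed for sperm maturation, stood at 27.4 and 25.7 CPM, against 349 and 132 CPM (-3.11 ± 0.36, adjusted p = 0.0047). These genes share a pattern in which the L2 libraries are close together and the C2 libraries are not. Rnase11 fell less, at 4.98 and 3.51 CPM in L2, against 11.3 and 6.70 CPM in C2, and Tecta had 1 count in L2 in all (ratio of C2 over L2 75.5, exact 95% interval 13 to 3034).

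Some members went another way or missed the threshold. Rnase9 was at 1675 and 10.7 CPM in L2, against 11.7 and 15.6 CPM in C2, high in 1 L2 library only (log2 ratios 7.11 and -0.53, adjusted p = 0.26, and a fitted -0.68 without L2 of batch 3017). In segment 3 its mean was 2078 CPM in L3 (SD 1511), against 159 CPM in C3 (SD 213). Rnase9 averaged 11.5 CPM in C1, no higher than in C2, so it did not mark segment 1 in these controls. The metalloprotease-like Adam28 was at 8.66 and 7.89 CPM in L2, against 489.5 and 59.1 CPM in C2 (-5.06 ± 1.28, adjusted p = 0.067). Of the 16 genes, 0 fell without L2 of batch 3017, 1 without L2 of batch 3097, 6 without C2 of batch 3017 and 13 without C2 of batch 3097. The count therefore rests on both L2 libraries.

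Most inhibitors that ERK induces against itself fell, while 0 genes of the kinase cascade were called. Of 56 tested genes of the pathway 3 (5.36%) rose and 14 (25%) fell, against 2.87% and 7.00% of all genes. The feedback inhibitors held 10 of these losses among 12 tested, with a median log2 fold change of -1.67 and medians of -2.07 and -0.98 by batch. Both L2 libraries lay below both C2 libraries for 9 of the 10, beside 1326 of all 1344 genes called lower. Of the 3 PEA3 factors 2 fell, and the 13 cascade genes had a median of -0.02. Summed over the 13 listed feedback inhibitors, the level was 1055 and 839.8 CPM in C1, against 459.5 and 285 CPM in C2. It was 259 and 202 CPM in C3 and 191 and 181 CPM in L2. The PEA3 factors summed to 1296 and 1068 CPM in C1, against 438 and 86.5 CPM in C2, and were lower still in C3. The part that segment 1 transcript in the C2 libraries plays in these falls was not tested.

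Among the ligands, Tgfa, which activates the EGF receptor, rose, with 25.2 and 26.0 CPM in L2, against 9.33 and 13 CPM in C2 (log2 fold change 1.20 ± 0.13, adjusted p = 0.0013). Egf stood at 26.6 and 20.8 CPM, against 10.5 and 13.9 CPM (0.96 ± 0.25, adjusted p = 0.050, just under the threshold), a call lost without any of the 4 libraries. Hbegf, another ligand of that receptor, fell to 2.72 and 2.36 CPM in L2, against 7.09 and 3.61 CPM in C2 (-1.03 ± 0.23, adjusted p = 0.026). Ligands of the same receptor thus moved in both directions. Among receptors, Erbb2, the partner of the EGF receptor, stood at 79.1 and 66.4 CPM, against 53.8 and 52.4 CPM (0.45 ± 0.10, adjusted p = 0.021), and Igf1r at 72.2 and 48.3 CPM against 223 and 75.4 CPM (-1.18 ± 0.23, adjusted p = 0.024). Ros1, the lumicrine receptor, stood at 193 and 171 CPM in L2, against 394 and 215 CPM in C2, and was not called (-0.73 ± 0.24, adjusted p = 0.098). When either L2 library was left out, Tgfa was the only one of the 5 called ligands and receptors that kept its call, and without C2 of batch 3017 Tgfa and Igf1r did. In the cascade, Araf, a kinase upstream of ERK, stood at 612 and 568 CPM, against 672 and 789.9 CPM.

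Etv5 (chr16:22381309-22439719), the PEA3 factor with the largest fall, stood at 1.19 and 1.70 CPM in L2, against 379.9 and 68.7 CPM in C2, with log2 ratios of -7.81 and -4.97 (fitted -6.96 ± 1.04, adjusted p = 0.018). Etv1 stood at 5.39 and 6.82 CPM, against 51.9 and 16.4 CPM (-2.37 ± 0.53, adjusted p = 0.046). Etv4 was low in all 4 libraries, at 0.337 and 0.877 CPM, against 6.26 and 1.42 CPM, and was not called (adjusted p = 0.094). All 3 factors were higher in C2 of batch 3017 than in C2 of batch 3097, by a median of 3.53-fold. The Etv5 and Etv1 calls held only without C2 of batch 3097 (adjusted p 0.063 to 0.29 without the others).

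Among phosphatases that switch ERK off, Dusp6 (chr10:99263231-99267489) stood at 6.79 and 5.14 CPM in L2, against 66.4 and 20.6 CPM in C2 (log2 fold change -2.74 ± 0.45, adjusted p = 0.020). Dusp5 stood at 7.26 and 5.62 CPM, against 65.7 and 22.6 CPM (-2.69 ± 0.47, adjusted p = 0.023), and Dusp4 at 2.88 and 1.53 CPM against 32.4 and 8.08 CPM (-3.05 ± 0.49, adjusted p = 0.017). Dusp7 fell with overlapping groups, at 30.8 and 17.4 CPM, against 36.1 and 30.3 CPM (-0.52 ± 0.14, adjusted p = 0.045). The Sprouty genes act upstream, on the receptor side of the cascade. Spry2 stood at 10.6 and 9.64 CPM in L2, against 22.6 and 19.0 CPM in C2 (-1.04 ± 0.13, adjusted p = 0.0024), with C2 libraries that nearly matched. Spry1 stood at 13.8 and 10.4 CPM, against 45.1 and 21.7 CPM, and Spry4 at 0.233 and 0.341 CPM against 3.75 and 0.869 CPM. All 3 Spred genes fell as well, among them Spred1 at 14.6 and 16.4 CPM in L2, against 73.9 and 42.2 CPM in C2, Spred2 at 12.7 and 10.8 CPM against 46.2 and 21.3 CPM, and Spred3 at 1.17 and 0.901 CPM against 7.85 and 3.70 CPM. Of the 12 inhibitors, 1 fell without L2 of batch 3017, 3 without L2 of batch 3097, 7 without C2 of batch 3017 and 9 without C2 of batch 3097. Spry2 and Tgfa were the pathway genes called in all of these fits.

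**Figure D4:**
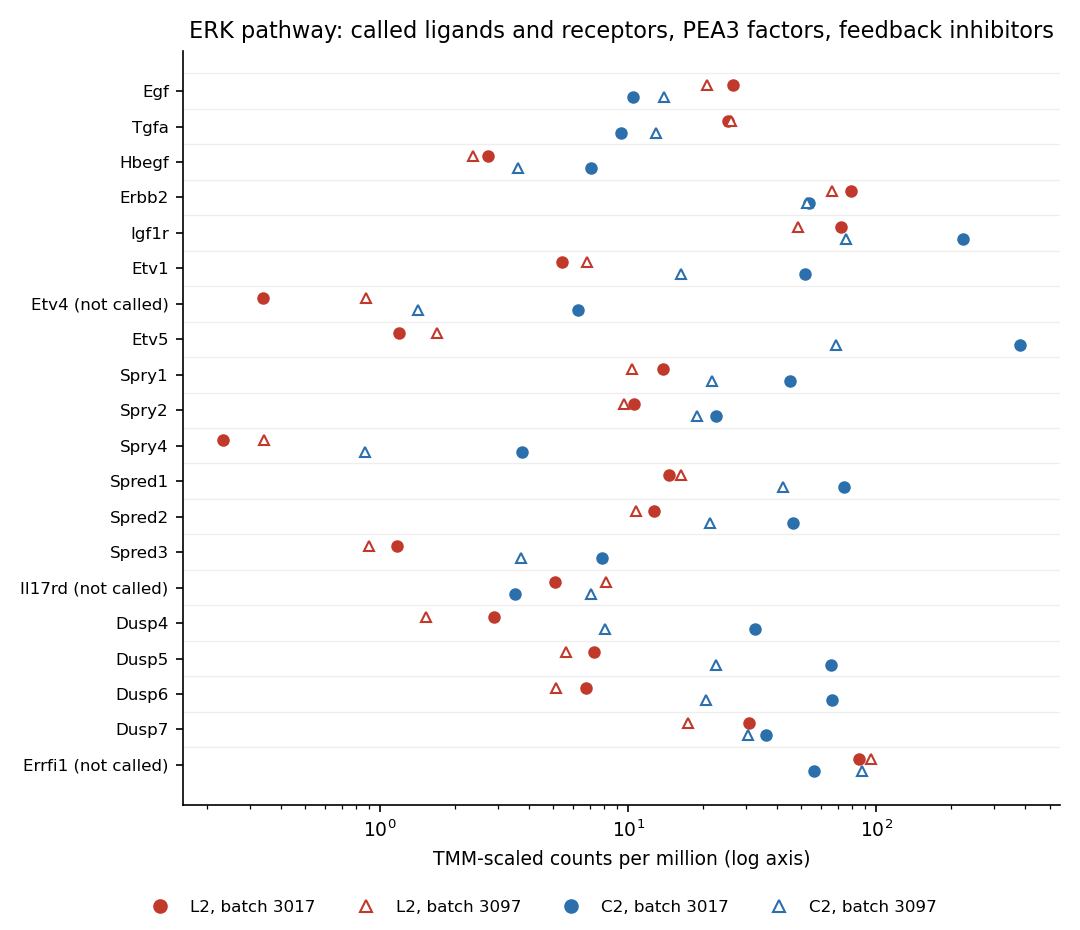
CPM (log axis) of called ligands and receptors, PEA3 factors and feedback inhibitors in each segment 2 library, with L2 above C2 in each row, circles for batch 3017 and triangles for batch 3097. Etv5 shows the widest gap, 1.19 and 1.70 CPM in L2 against 379.9 and 68.7 CPM in C2, while Spry2, at 10.6 and 9.64 against 22.6 and 19.0 CPM, has control libraries that nearly match.

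The 250 bases before the RefSeq start sites (GRCm38.p6) were searched on both strands for AGGAAGT, a site that PEA3 factors bind, which is present in 2525 of 32851 promoters (7.69%). Of the 12 feedback inhibitors and PEA3 factors that fell, 10 matched the promoter table and 2 of these held the site, Dusp5 and Spred2. Of the 10 segment 1 secretory genes that fell, 8 matched and 1 held it, Rnase10, and of the 29 sperm genes 24 matched and 2 held it. Other motifs were searched in the same way. The ETS site CCGGAAG (6.91% of all promoters) and the cAMP response element TGACGTCA (1.55%) had 0 matches in these groups. The AP-1 site TGANTCA (6.75%) was held only by 2 sperm genes, and the core TGACGTNA (2.52%) only by Dusp5. The promoters of Dusp5, Spred2 and Rnase10 are shown because they are the ERK pathway and segment 1 genes that fell and hold AGGAAGT. They were chosen after the search. Capitals mark the match, which lies on the minus strand and so reads as its reverse complement. It starts 134 bases before the RefSeq start site in Rnase10 (chr14:51007679-51007928), 193 before it in Dusp5 (chr19:53528895-53529144) and 33 before it in Spred2 (chr11:19924192-19924441). The GENCODE annotation starts Rnase10 at chr14:51007751, before the match, so that match is upstream of the RefSeq start only. All 3 sequences are written on the plus strand.
Rnase10: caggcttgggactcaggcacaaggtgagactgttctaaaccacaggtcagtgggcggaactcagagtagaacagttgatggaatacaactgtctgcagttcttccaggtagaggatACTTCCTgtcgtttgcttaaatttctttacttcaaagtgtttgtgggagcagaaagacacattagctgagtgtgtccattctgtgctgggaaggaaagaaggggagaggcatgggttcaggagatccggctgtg
Dusp5: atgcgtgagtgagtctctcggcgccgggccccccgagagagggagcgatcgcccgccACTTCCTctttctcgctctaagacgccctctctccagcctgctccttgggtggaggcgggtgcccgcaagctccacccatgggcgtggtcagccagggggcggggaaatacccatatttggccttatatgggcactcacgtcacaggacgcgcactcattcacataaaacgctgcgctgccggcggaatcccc
Spred2: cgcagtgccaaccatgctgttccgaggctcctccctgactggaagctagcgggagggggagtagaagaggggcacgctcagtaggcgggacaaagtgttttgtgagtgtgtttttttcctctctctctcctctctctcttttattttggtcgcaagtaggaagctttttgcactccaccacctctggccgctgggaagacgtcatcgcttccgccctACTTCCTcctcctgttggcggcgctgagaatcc

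The wider secretory programme of the caput changed in both directions. Of 36 tested genes 3 (8.33%) rose and 7 (19.4%) fell, against 2.87% and 7.00% of all genes. The median log2 fold change was 0.48, with medians of 0.78 and 0.14 by batch. Mfge8, a milk fat globule protein on the sperm surface, stood at 575 and 471 CPM in L2, against 14931 and 5355 CPM in C2 (-4.16 ± 0.64, adjusted p = 0.016). Adam7, a membrane protein passed to sperm whose levels are given above, fell by 1.31 ± 0.18 on the log2 scale (adjusted p = 0.0040). The iron-siderophore carrier Lcn2 stood at 1763 and 1709 CPM in L2, against 6313 and 3212 CPM in C2 (-1.41 ± 0.25, adjusted p = 0.014). Basigin (Bsg), a surface glycoprotein of sperm and epithelium, stood at 502 and 440.3 CPM, against 648 and 669 CPM, and Teddm2 at 26.7 and 29.2 CPM against 68.0 and 46.3 CPM. Ly6g5b stood at 6.19 and 9.69 CPM in L2, against 547 and 84.0 CPM in C2, and the protease inhibitor Wfdc2 at 4.54 and 2.87 CPM against 19.3 and 12.1 CPM. In the 7 that fell, both L2 libraries lay below both C2 libraries, as in 1326 of all 1344 genes called lower.

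Crisp1, a secreted protein that binds sperm, rose although it is a segment 1 gene, with 157 and 128 CPM in L2, against 9.22 and 12 CPM in C2 (log2 fold change 3.74 ± 0.80, adjusted p = 0.045, log2 ratios 4.02 and 3.36). It averaged 878 CPM in C1, 11.4 CPM in L1, 20.9 CPM in L3 and 14.7 CPM in C3, so that among the ligated segments its level was highest in segment 2. The call was lost without any of the 4 libraries (adjusted p 0.11 to 0.31). Pate4, a small Ly6 type protein, stood at 7.10 and 12.5 CPM in L2, against 0.379 and 3.09 CPM in C2 (2.59 ± 0.59, adjusted p = 0.039), and the peroxidase Prdx5 at 260.1 and 299.7 CPM against 171 and 237 CPM (0.46 ± 0.13, adjusted p = 0.048). Clu, Lcn5 and Gpx5, which are abundant caput products, were not called. The chaperone clusterin (Clu) was at 23009.7 and 22322 CPM in L2, against 2252 and 10051 CPM in C2 (adjusted p = 0.078). Lcn5, a retinoid carrier, was at 4411 and 1047 CPM, against 294 and 624 CPM (adjusted p = 0.16), and Gpx5 at 33813 and 45535 CPM against 55984 and 62631 CPM (adjusted p = 0.069). Of the caput genes, 0, 1, 4 and 7 fell and 0, 0, 3 and 11 rose without L2 of batch 3017, L2 of batch 3097, C2 of batch 3017 and C2 of batch 3097, in that order.

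Families of secreted proteins differed in their calls, beside 7.00% lower and 2.87% higher over all genes. Of 31 tested beta-defensins, antimicrobial and sperm-binding peptides, 5 (16.1%) fell and 0 rose. Their median log2 fold change was 1.41, with medians of 0.82 and 0.14 by batch. Among the segment 2 libraries, some were high in L2 of batch 3017 only, such as Defb23, at 381 and 1.97 CPM in L2, against 0.792 and 1.67 CPM in C2. Defb23 averaged 164 CPM in L3 (SD 224). Defb20 stood at 1523 and 1479.6 CPM in L2, against 9002 and 4287 CPM in C2 (-2.10 ± 0.41, adjusted p = 0.025). Defb41 stood at 191 and 241 CPM, against 567 and 488 CPM, and Defb42 at 975 and 947 CPM against 2173 and 1779 CPM (-1.04 ± 0.13, adjusted p = 0.0026). Lipocalins had 3 of 9 lower, cystatins 4 of 8, ADAM proteins 7 of 22 with 1 higher, and WAP domain inhibitors 2 of 14. CRISP proteins had 2 higher, Crisp1 and Crispld2, and 1 lower of 5, ribonucleases of the A family 1 higher and 2 lower of 9, and Ly6, Lypd and Pate proteins 1 higher and 2 lower of 19. Of 9 Spink protease inhibitors 1 fell, Spink10, at 233 and 273 CPM in L2, against 854 and 728 CPM in C2 (-1.65 ± 0.34, adjusted p = 0.030). Of 24 serpins 1 was called. Defb42 lost its call only without L2 of batch 3017 (adjusted p = 0.055), Defb20 and Defb41 kept theirs only without C2 of batch 3097, and Spink10 lost its call without any of the 4 libraries (0.062 to 0.25).

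The genes with the largest rises were little expressed in C2, and mostly lower in its batch 3017 library. Nxpe2 (chr9:48318006-48353454), a segment 3 gene, stood at 42.3 and 41.0 CPM in L2, against 0.172 and 1.22 CPM in C2 (log2 fold change 5.96 ± 0.88, adjusted p = 0.017, log2 ratios 5.99 and 4.59). Stra6, the cell surface receptor for retinol, rose to 28.7 and 34.4 CPM in L2, against 1.31 and 5.63 CPM in C2 (3.29 ± 0.40, adjusted p = 0.0068). Klhl14 stood at 9.85 and 7.38 CPM, against 0.0344 and 0.998 CPM, and the potassium channel subunit Kcne3 at 8.86 and 14.4 CPM against 0.413 and 4.22 CPM. Islr2 stood at 22.6 and 20.4 CPM in L2, against 1.62 and 5.15 CPM in C2, and Ccdc183 at 12.2 and 8.08 CPM against 0.585 and 1.90 CPM. The adhesion molecule Cntn5, at 7.52 and 2.99 CPM in L2, against 0.344 and 0.322 CPM in C2, had control libraries that matched, and Frmpd4 stood at 21.3 and 8.69 CPM against 1.51 and 2.51 CPM. Of these 8, the call held without L2 of batch 3097 for Stra6, Ccdc183 and Frmpd4, and for none without L2 of batch 3017 (adjusted p 0.066 to 0.23).

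The 10 named genes with the largest gains in mean CPM among those called had varied functions. The lysosomal protease cathepsin L (Ctsl) stood at 2017 and 2777 CPM in L2, against 864 and 1725 CPM in C2 (log2 fold change 0.92 ± 0.21, adjusted p = 0.029). The glutathione transferase Gstm1 stood at 618 and 603 CPM, against 216 and 341 CPM (1.16 ± 0.17, adjusted p = 0.0059), and Gstm2 at 938 and 1100.1 CPM against 733 and 806 CPM (0.40 ± 0.10, adjusted p = 0.034). Slc1a5, a carrier of neutral amino acids, stood at 348 and 279 CPM in L2, against 120.3 and 157 CPM in C2 (1.17 ± 0.22, adjusted p = 0.019). In each of these the L2 libraries lay above both C2 libraries, as in 540 of all 551 genes called higher, and C2 of batch 3017 was the lowest of the 4. The actin bundler Pls3 stood at 1394 and 1671 CPM, against 640.1 and 1290.2 CPM, the lipid transporter Abca2 at 1271 and 1129.9 CPM against 649.5 and 882 CPM, and the phospholipid flippase Atp11a at 377 and 380.0 CPM against 189 and 259.9 CPM (0.77 ± 0.12, adjusted p = 0.0063). Smaller gains were called in the aspartate aminotransferase Got2, at 1034 and 999.7 CPM in L2, against 607 and 808 CPM in C2, the nascent chain factor Naca, at 625 and 662 CPM against 386 and 518 CPM, and the class I antigen H2-D1, at 602 and 573 CPM against 404 and 456 CPM. All 10 calls held without C2 of batch 3097, those of Gstm1 and Atp11a also without C2 of batch 3017 or L2 of batch 3097, and 0 without L2 of batch 3017 (adjusted p 0.071 to 0.32).

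Of 12 tested genes of androgen action, 5 (41.7%) fell and 1 (8.33%) rose, against 7.00% and 2.87% of all genes. Steroid 5-alpha-reductase, which makes dihydrotestosterone, is encoded by Srd5a1, at 6.14 and 3.94 CPM in L2, against 32.2 and 10.6 CPM in C2 (log2 fold change -2.00 ± 0.42, adjusted p = 0.033), and by Srd5a2, at 117 and 116 CPM against 329.7 and 229 CPM (-1.27 ± 0.26, adjusted p = 0.027). Mme, the peptidase neprilysin, stood at 11.7 and 14.5 CPM in L2, against 149 and 64.4 CPM in C2 (-3.02 ± 0.60, adjusted p = 0.036). Among response genes, Fkbp5 stood at 666 and 642 CPM, against 948 and 901 CPM (-0.50 ± 0.12, adjusted p = 0.034), and Ndrg1 at 149 and 152 CPM against 240.1 and 242 CPM (-0.68 ± 0.12, adjusted p = 0.0091). For Fkbp5 and Ndrg1 the C2 libraries matched, so the batches gave like ratios. Tmprss2 rose, at 12.8 and 11.5 CPM in L2, against 7.74 and 8.43 CPM in C2. Of these 6 calls, 0 held without L2 of batch 3017 or L2 of batch 3097, 1 (Ndrg1) without C2 of batch 3017 and 6 without C2 of batch 3097.

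Cell cycle genes were low in every segment 2 library, at most 9.11 CPM. Of 16 tested 9 (56.2%) fell, against 7.00% of all genes, with a median log2 fold change of -1.73 and medians of -1.32 and -1.05 by batch. Of 10 DNA replication genes 0 were called, with a median of -0.09. Ccnb2, a mitotic cyclin, stood at 0.181 and 0.243 CPM in L2, against 2.41 and 2.38 CPM in C2 (-3.50 ± 0.48, adjusted p = 0.0043). Its relative Ccnb1 stood at 0.337 and 0.828 CPM, against 1.86 and 2.99 CPM, and their kinase Cdk1 at 0.0778 and 0.609 CPM against 1.48 and 3.28 CPM. The centromere protein Cenpf stood at 0.311 and 0.341 CPM in L2, against 4.23 and 3.28 CPM in C2, the proliferation marker Mki67 at 0.855 and 2.09 CPM against 7.95 and 9.11 CPM, and the topoisomerase Top2a at 1.79 and 2.07 CPM against 7.64 and 7.92 CPM. In all 9 the L2 libraries lay below both C2 libraries, as in 1326 of all 1344 genes called lower. The C2 libraries differed in these 9 by a median fold of 0.90 (batch 3017 over 3097). The sperm transcripts moved with these losses, and their part was not tested. Of the 16 genes, 0 fell without L2 of batch 3017, 1 without L2 of batch 3097, 3 without C2 of batch 3017 and 10 without C2 of batch 3097.

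Among 16 transcription factors of segment identity, 2 (12.5%) rose and 1 (6.25%) fell, against 2.87% and 7.00% of all genes. Pax8 stood at 114 and 94.4 CPM in L2, against 67.6 and 71.5 CPM in C2 (log2 fold change 0.57 ± 0.14, adjusted p = 0.038). The epithelial factor Elf5 stood at 4.46 and 7.60 CPM, against 0.619 and 2.77 CPM (1.95 ± 0.45, adjusted p = 0.033), and Runx1 fell to 22.6 and 20.9 CPM in L2, against 53.1 and 30.2 CPM in C2 (-0.89 ± 0.18, adjusted p = 0.022). These 3 calls held without C2 of batch 3097 and were lost without any of the other 3 libraries. Elf3 was at 543 and 583 CPM in L2, against 156 and 377 CPM in C2, and was not called.

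Of 21 tested oxidative stress genes 3 (14.3%) rose and 4 (19.0%) fell, against 2.87% and 7.00% of all genes. Srxn1, which repairs peroxiredoxins, stood at 92.6 and 99.4 CPM in L2, against 38.6 and 64.3 CPM in C2 (log2 fold change 0.93 ± 0.13, adjusted p = 0.0050). Glutathione reductase (Gsr) stood at 67.7 and 57.8 CPM, against 92.9 and 87.6 CPM (-0.53 ± 0.08, adjusted p = 0.0047), and Gpx4, the peroxidase of lipid membranes, at 154 and 145 CPM against 231 and 192 CPM. Calls in this list thus went both ways at small folds. The unfolded protein response had 1 higher and 1 lower of 24, the p53 and apoptosis list 1 and 1 of 21, and cholesterol genes 2 and 1 of 31, with the sterol sensor Nr1h3 at 5.37 and 6.26 CPM in L2, against 1.31 and 3.51 CPM in C2. Fluid and ion transport genes had 0 calls of 16. Without L2 of batch 3017 the calls of Srxn1, Gsr, Gpx4 and Nr1h3 were lost (adjusted p 0.063 to 0.18), and without L2 of batch 3097 those of Gsr, Gpx4 and Nr1h3 (0.062 to 0.095).

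Of 27 interferon genes 1 (3.70%) rose and 1 (3.70%) fell, against 2.87% and 7.00% of all genes, while 0 of 20 interferon effectors were called. The transcription factor Irf9 rose, at 115 and 105 CPM in L2, against 43.8 and 60.5 CPM in C2 (log2 fold change 1.09 ± 0.16, adjusted p = 0.0061). Antigen presentation had 1 of 13 higher, complement 2 of 12 lower, with the complement gene C3 at 44.3 and 40.2 CPM in L2, against 90.8 and 84.8 CPM in C2, and cytokines 0 of 7. Those values of the complement gene had an adjusted p of 0.050, just under the threshold, and the call was lost without any library, while that of Irf9 was lost without L2 of batch 3017 (adjusted p = 0.071).

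Markers of other cell types gave at most 1 call in a direction per list, beside 2.87% higher and 7.00% lower over all genes. Of 6 macrophage markers 0 were called, and their summed level was 129.8 and 198 CPM in L2, against 76.5 and 105 CPM in C2. Cd68 made up most of the sum in L2 but not in C2, at 74.8 and 132 CPM against 13.5 and 48.6 CPM (adjusted p = 0.065). Of 8 clear and narrow cell markers 1 rose, the proton pump subunit Atp6v0d2, at 81.9 and 133 CPM in L2, against 60.7 and 76.2 CPM in C2 (log2 fold change 0.63 ± 0.13, adjusted p = 0.023). Their summed level was 1139.8 and 1253 CPM in L2, against 709.8 and 1011 CPM in C2. Basal cells had 1 higher and 1 lower of 5, with Krt5 at 110.4 and 155 CPM against 90.4 and 115 CPM, and Itga6 at 24.1 and 26.2 CPM against 73.9 and 50.8 CPM. Smooth muscle had 1 higher of 5, Tagln at 79.0 and 99.1 CPM in L2, against 66.6 and 75.7 CPM in C2, and ciliated cells 1 lower of 6, Dnah5 at 0.441 and 0.657 CPM against 2.82 and 1.38 CPM. Of 5 fibroblast markers 0 were called, although Pdgfra was at 21.3 and 23.9 CPM in L2, against 219 and 53.5 CPM in C2. Endothelial, erythroid, T cell, B cell and glial markers also had 0 calls, and no neutrophil or adipocyte marker had counts enough to test. Of 24 ribosomal protein genes 0 were called, with a median log2 fold change of 0.29. Of the 5 marker calls with values here, those of Krt5, Itga6 and Dnah5 held only without C2 of batch 3097, that of Tagln was lost without any library and that of Atp6v0d2 without L2 of batch 3097 or C2 of batch 3017 (adjusted p 0.14 and 0.10).

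**Figure D5:**
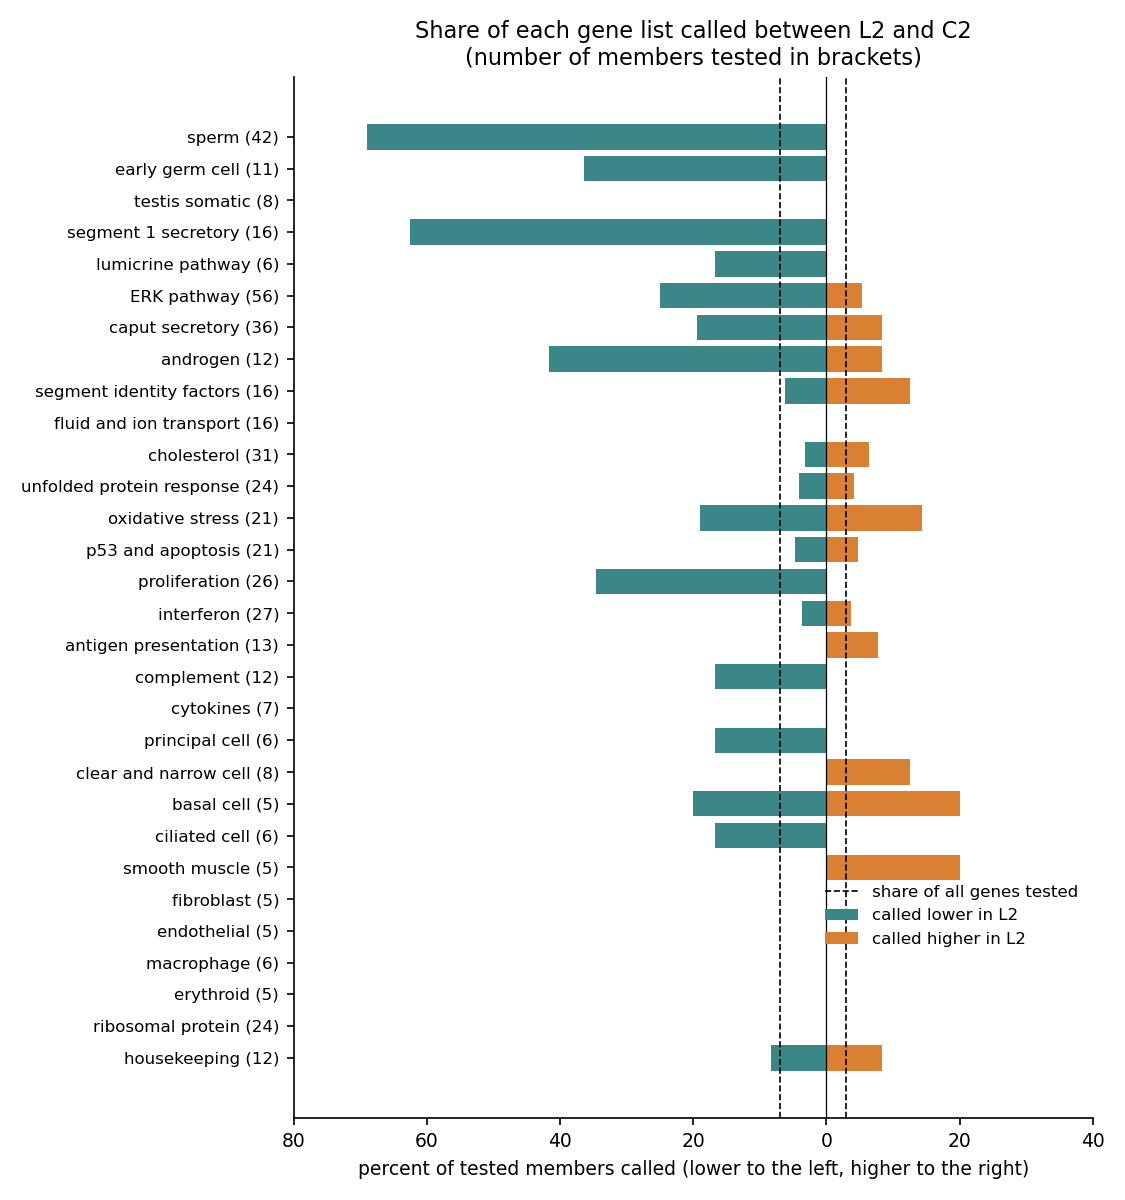
Percent of tested members of each gene list called lower (left) and higher (right) in L2 against C2, with the percent of all 19213 genes (2.87% higher, 7.00% lower) as dashed lines. Sperm genes (69.0% lower) and segment 1 secretory genes (62.5% lower) reach farthest to the left.

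The response to ligation was then compared between segments, in the same fit. Against segment 1, where 9363 genes (48.7%) were called, the log2 fold change differed for 3561 genes (18.5%), higher in segment 2 for 1575 (8.20%) and lower for 1986 (10.3%). Against segment 3, where 331 genes (1.72%) were called, 0 differed by edgeR, with 1917 at an unadjusted p under 0.05, a smallest adjusted p of 0.31, and 165 by DESeq2. The count was 1 without C2 of batch 3017 and 1124 without C2 of batch 3097, and no gene is called particular to segment 2 against segment 3 here. Of the sperm genes, 17 fell and 5 rose in segment 1, 27 fell and 0 rose in segment 3, and the fold changes of 12 differed between segments 1 and 2. Among these the kinase Tssk6 fell by 3.58 on the log2 scale in segment 2 and stood at -0.37 in segment 1. Control levels differed too: summed sperm head genes were at 5.88 and 7.27 CPM in C1, against 124 and 91.4 CPM in C2. Summed channel and signalling genes went the other way, at 220.5 and 195 CPM in C1, against 132 and 104 CPM in C2. Most of that C2 sum was the phosphatase gene Ppp1cc, whose values are given above and which was not called in segment 2. The log2 fold change of Ppp1cc in segment 1 was -1.18, so this sum does not describe the class as a whole. The part of control levels in the differences was not tested. The 1382 genes called in segments 1 and 2 included 56 of opposite direction.

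Of these 56 genes, 18 rose in segment 2 and fell in segment 1. They include Crisp1 (log2 fold change 3.74 in segment 2 and -6.27 in segment 1), Cntn5 (3.96 and -3.48) and Pax8 (0.57 and -1.35). Peli2, a ubiquitin ligase of Toll-like receptor signalling, and the lysosomal protease Ctsh were picked from them after their values were seen. Peli2 stood at 6.58 and 7.38 CPM in L2, against 4.44 and 4.99 CPM in C2, with a log2 fold change of 0.57 in segment 2 and -3.0 in segment 1. Ctsh stood at 115 and 115 CPM, against 47.1 and 61.2 CPM, with 1.10 and -0.77. The reverse held for 38 genes, Ndrg1 (-0.68 in segment 2 and 0.48 in segment 1), Hk1 (-0.49 and 0.35), Fkbp5 (-0.50 and 0.37) and Ddx4 (-1.54 and 2.07) among them. The count of genes whose response differed from segment 1 was 1784 without L2 of batch 3017 and 1703 without L2 of batch 3097.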

How the data were processed

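The deposited tables hold raw read counts per gene, whole numbers with no normalization, as a table per sequencing batch with a column per group. Per the submitters' processing notes, reads passed Trim Galore 0.6.0, cutadapt, FastQC and, for GRCm38 (mm10), STAR 2.7.0e. Sources used here give neither counting tool nor strand setting nor annotation, so antisense and overlapping genes and close paralogs are uncertain. All 55536 gene identifiers match GENCODE mouse release 21, the source of gene coordinates. Columns were matched by group and batch; the replicate numbers of the labels were not tied to batches.

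Genes were kept by filterByExpr (minimum count 10) and scaled by TMM, and the quasi-likelihood test of edgeR 4.0.16 (limma 3.58.1, R 4.3.3; robust, two-sided, Benjamini-Hochberg over 19213 genes, threshold 0.05) was fitted to all 12 libraries with group and batch, which left 5 residual degrees of freedom. The standard error (SE) of a log2 fold change is its size over the root of F. Batch pairs the libraries by the design text, and the batch differences of L2 and C2 correlated at 0.17 over genes (0.08 to 0.55 over all pairs of groups, with 0.55 for L2 and L3). Within-batch ratios add 0.5 CPM. Bounds use a floor of 3 counts per library, worth 0.073 to 0.103 CPM in segment 2, and ratios exact 95% intervals, which cover counting error only. Recovery of known fold changes was checked on simulated counts.

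The lists and members were chosen with earlier results of these data known. Named genes were the 10 largest and 10 smallest log2 fold changes, the 10 largest gains and losses in CPM and the 10 smallest adjusted p-values among genes called in 1 direction across the batches, with at least 5 CPM in the higher group and a symbol that is no clone, Gm, Rik or -ps name, with preset sentinel genes and, per list, up to 4 called and 2 uncalled members. The text gives a part of these, more called members of the sperm and ERK lists, and genes said to be chosen after their values were seen. DESeq2 1.42.0 and other scalings, filters and fits were alternatives.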

Additional observations from a re-analysis of the deposited data

Results flagged for a closer look

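The effect of ligation differed between segments 2 and 1 for 3561 genes by edgeR (batch as a block, adjusted over all genes), and 61 of the 138 genes given with values in the text were among them, 20 with a log2 effect higher in segment 2 and 41 with one lower. Each value that follows is the log2 effect in segment 2 minus that in segment 1.

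Among genes of sperm and germ cells with a called difference, these had the more negative effect in segment 2: the differences were -3.01 in Ccdc136, -2.97 in Fhl4, -4.40 in Gapdhs, -5.84 in Odf1, -6.39 in Pgk2, -3.21 in Tssk6, -3.60 in Ddx4 and -0.84 in Hk1. Those of Hspb9 (-7.26) and Irgc1 (-6.49), with 0 counts in L2, depend on the fit's prior count. Ppp1cc differed by 0.97. The ribosomal RNA loci differed in the same direction as most sperm genes, by -3.44 in Gm42418, -3.07 in Gm23935, -0.60 in mt-Rnr1 and -0.85 in mt-Rnr2.

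Of the 14 ERK pathway genes that fell in segment 2, 7 had a called difference, each with the more negative effect in segment 1, with differences of 3.51 in Dusp4, 3.01 in Dusp6, 1.21 in Spred2, 1.48 in Spry1, 0.68 in Spry2, 2.61 in Hbegf and 1.97 in Igf1r. Of the pathway genes not called in segment 2, Etv4 differed by 7.37, Ros1 by 1.38 and Araf by -1.78. Tgfa, which rose in segment 2, differed by -1.45. Among secretory genes the differences were 8.55 in Defb48, 3.37 in Ovch2, 6.92 in Teddm2, 10.01 in Crisp1, -1.91 in Spink10, -4.86 in Pate4, -3.13 in Clu and -0.83 in Gpx5.

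Of the genes that rose in segment 2 and had a called difference, these had the more positive effect in segment 1: the differences were -1.06 in Abca2, -1.0 in Atp11a, -2.34 in Ctsl, -3.59 in Elf5, -1.86 in Gstm1, -0.69 in Gstm2, -0.82 in Irf9, -3.33 in Islr2, -0.61 in Krt5, -2.05 in Nr1h3, -0.98 in Pls3, -1.11 in Srxn1, -0.49 in Tagln and -1.20 in Tmprss2. Positive differences among them were 0.96 in Atp6v0d2, 7.45 in Cntn5, 1.87 in Ctsh, 1.92 in Pax8 and 3.56 in Peli2. Of the other genes, Runx1 differed by 1.39, Gsr by -0.49, Ndrg1 by -1.16 and Fkbp5 by -0.87. The axoneme genes Cfap206, Deup1, Dnah7b and Tekt1 differed by -5.89, -3.63, -2.47 and -4.53.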

How the results depend on the processing

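Leaving out each segment 2 library in turn gave 148 to 4066 calls, 17 to 1764 of them higher and 131 to 2302 lower, 1703 to 4655 genes whose effect differed from segment 1 and 0 to 1124 from segment 3, and Rnase9 stood at 5.86 with all libraries, turned to -0.68 without L2 of batch 3017 and reached 7.31 without L2 of batch 3097. With no replicate block there were 1162 calls, 256 of them higher, and 2255 differences from segment 1; 92 of the 125 named calls held and 2 named genes were gained. The 4 segment 2 libraries alone gave 149 calls (5 higher, 144 lower) and lost 95 of 124 named calls, and the fit without the segment 1 libraries 1059 (255 and 804). DESeq2 called 950 genes higher and 165 that differed from segment 3, and library totals alone called 1598 higher and 1071 lower, against 551 and 1344, since they move the median log2 fold change of all genes by 0.129; without a low-count filter 1 gene differed from segment 3. With priors of 0.1 and 2 CPM, batch 3017 held 1765 and 599 genes at least 2-fold higher and 1947 and 658 lower, and batch 3097 held 596 and 95 higher and 1247 and 308 lower. Choosing segment 1 genes at 4-fold or 16-fold moved their median percent to 5.50% or 0.503% in L2 of batch 3017, to 6.12% or 0.539% in L2 of batch 3097 and, at 4-fold, to 26.2% in C2 of batch 3017; it was 12% or 3.10% in C2 of batch 3097, and 16-fold segment 3 genes stood at 17.5% in C2 of batch 3017. The segment 3 genes called higher numbered 57 by DESeq2, 38 without robust dispersion and 1 in the 4 libraries alone, against 9, and the segment 1 genes called lower 149 by DESeq2, 48 without a low-count filter and 16 in the 4 libraries alone, against 99. Every direction of a named gene but that of Rnase9 was kept in the alternatives run. The list counts without a library, and the segment 2 genes, were added after seeing the data. With 30.5 M counts in the shallowest library, 3 counts are worth 0.098 CPM, which limits what an absent sperm transcript can show.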

Other observations

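Tekt1, Cfap206, Deup1 and Dnah7b, genes of cilia and flagella, stood among the genes with opposite directions in segments 1 and 2, picked after their values were seen. The tektin gene Tekt1, a structural part of axonemes, stood at 0.104 and 0.122 CPM in L2, against 1.14 and 0.515 CPM in C2, with a log2 fold change of -2.79 in segment 2 and 1.74 in segment 1. Cfap206, of the radial spokes, stood at 0.0518 and 0.0730 CPM, against 2.27 and 0.934 CPM (-4.56 and 1.33). Deup1, needed to multiply centrioles in cells with many cilia, stood at 1.40 and 1.29 CPM in L2, against 3.68 and 4.31 CPM in C2 (-1.56 and 2.06), and the dynein gene Dnah7b at 0.959 and 1.29 CPM against 2.65 and 2.25 CPM (-1.13 and 1.35).

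Few genes peaked in control segment 2. In batch 3017, 13 genes were at least 4-fold higher in C2 than in C1 and C3, and read in the other batch they had a median log2 ratio of L2 over C2 of -0.47, with 6 at least 2-fold lower. In batch 3097, 3 genes met the rule, with a median log2 ratio of -4.00 in batch 3017 and 3 at least 2-fold lower, and 6 of the first 13 and 2 of these 3 were highest in C2 in the other batch as well.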
